A study of Oryza sativa with 20 samples.

Results

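ML (LOC4326471) is the rice gene with the largest increase in transcript signal at 5 min after pollination, in the stigma as well as in the ovary. It was chosen for those increases: its main probe set ranked 1st of 35470 tested probe sets by log2 change at 5 min in both tissues, so the 5-min changes are given as a description with no test. It is 1 of 16263 tested genes, and a second probe set for it served as a check. The second probe set carries the suffix of probes that can also bind other transcripts.

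RNA was measured on 20 Affymetrix rice arrays, 1 sample each, from field-grown Oryza sativa. Pollinated material was taken as stigma at 5 min (n = 2) and ovary at 5 min (n = 3), and as stigma and ovary together, called pistil here, 15 to 25 min, 40 to 50 min or 5 to 7 h after pollination (n = 3 each). The unpollinated stigma and the unpollinated ovary (n = 3 each) were the references. Per the labels' descriptions, samples of all 5 pollinated groups, the 5-min ovary too, contained pollen grains, and none are mentioned for the unpollinated groups, so pollen RNA and pistil RNA cannot be told apart in the pollinated groups. The labels give 1 field site and 1 collecting season for all groups and name no cultivar.

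The replicates are labelled biological, with no word on separate plants or collection days, so a p-value covers only how these samples vary, which may be technical. Values are relative intensities, scaled so that the 75th percentile of each array is 1. Array medians lay between 0.195 and 0.377, arrays of a group correlated at 0.937 or more, and no pair of arrays was identical. The number of arrays limits the precision. Of 5 carpel and ovule identity genes, 2 were lower in the 5-min stigma than in the 5-min ovary, beside 14.3% of all probe sets. These were the ovule identity genes MADS13 and MADS21, at log2 changes of -2.93 and -3.44 (limma adjusted p = 1.08e-05 and 7.17e-06). The other 3 were not called, with 0.677 for DL, 0.165 for MADS3 and -0.117 for MADS58.

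ML is listed with the synonyms salT and MRL. salT encodes a small mannose-binding lectin of the jacalin-related family, a group of cytosolic sugar-binding proteins. In rice it is known as a gene that is switched on by salt, drought and abscisic acid, the hormone that carries the plant's water-stress signal. Lectins of this kind bind mannose-rich sugar chains.

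Before pollination ML was low and uneven. It read 0.300, 0.144 and 3.07 in the 3 unpollinated stigma arrays. It read 3.50, 0.641 and 0.156 in the 3 unpollinated ovary arrays. In each tissue 1 array stood well above the other two, stigma replicate 3 and ovary replicate 1, and the highest array was 21.3 times the lowest in the stigma and 22.4 times in the ovary. The arrays of the unpollinated tissues overlapped. The unpollinated stigma minus the unpollinated ovary was -0.47 on the log2 scale (SE 0.99, 95% interval -2.55 to 1.61), which did not pass (limma adjusted p = 0.729), in a comparison where 32.8% of probe sets were called. The sign of this difference depended on single arrays: it was 0.45 without unpollinated stigma replicate 2 and 0.69 without unpollinated ovary replicate 1.

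At 5 min after pollination ML was among the bright probe sets in both tissues. The 5-min stigma read 90.2 and 146.6, against 0.300, 0.144 and 3.07 in the unpollinated stigma. The 5-min ovary read 79.5, 36.5 and 104, against 3.50, 0.641 and 0.156 in the unpollinated ovary. All 5 pollinated arrays lay above all 6 unpollinated ones, the lowest of them being ovary replicate 2. The mean was 118 ± 39.9 (SD, n = 2) in the 5-min stigma and 1.17 ± 1.64 (SD, n = 3) in the unpollinated stigma. It was 73.3 ± 34.1 in the 5-min ovary and 1.43 ± 1.81 in the unpollinated ovary (SD, n = 3 each). In these bulk samples, more cells with the transcript and more transcript per cell cannot be told apart.

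The log2 difference was 7.82 (SE 1.11) in the stigma and 6.57 (SE 0.99) in the ovary. Both are descriptions, since they chose the gene. Among all tested probe sets, 8.61% were called higher in the 5-min stigma and 3.88% in the 5-min ovary. The second probe set gave 7.28 and 6.51, ranking 2nd in each tissue. Its readings were 37.0 and 81.0 in the 5-min stigma, against 0.225, 0.159 and 1.21 in the unpollinated stigma. In the ovary they were 37.8, 16.1 and 72.9 at 5 min, against 1.49, 0.309 and 0.0733 before, the last below the floor of 0.128 at which low values were set.

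**Figure D1:**
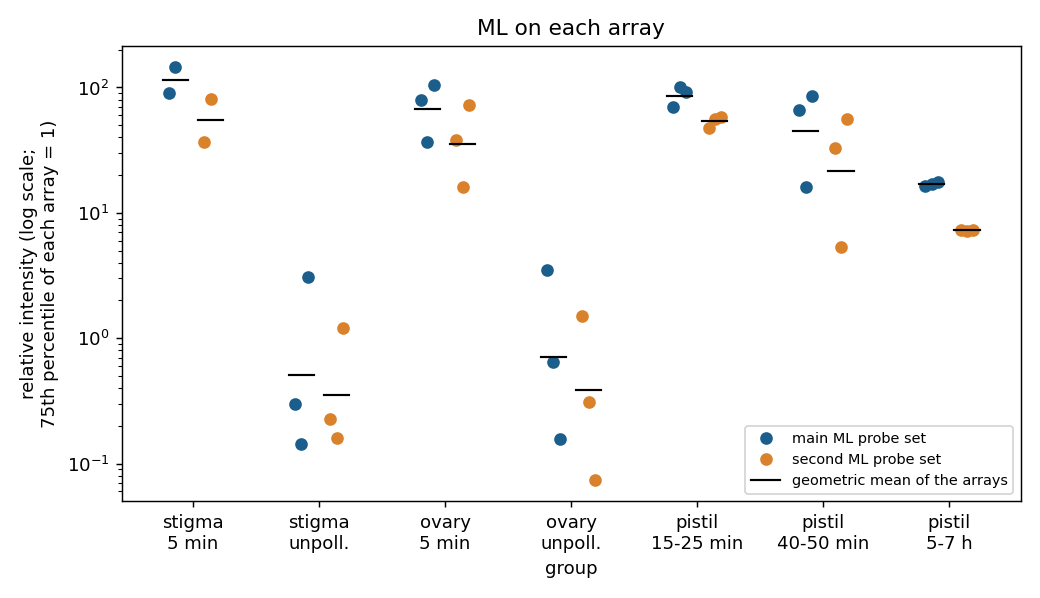
Relative intensity of ML (log scale, 75th percentile of each array = 1) in the 7 groups; each dot is 1 array, blue for the main and orange for the second probe set, and bars are geometric means, with values under 0.128 raised to it. All 14 pollinated arrays of the main probe set lie at 16.0 or higher, and the 6 unpollinated ones at 3.50 or lower.

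The 5-min stigma and the 5-min ovary overlapped. The stigma minus the ovary was 0.78 (SE 1.11, 95% interval -1.55 to 3.10), which did not pass (limma adjusted p = 0.591), while 35% of all probe sets were called between these tissues. The interval allows ML to be lower, about equal or higher in the stigma. The second probe set gave 0.63 (limma adjusted p = 0.629).

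Whole pistils also read high at both early stages. The readings were 69.3, 100.9 and 91.6 at 15 to 25 min. They were 65.8, 16.0 and 86.0 at 40 to 50 min, where replicate 2 stood well below the other two. At 5 to 7 h they were 16.4, 16.8 and 17.7, the tightest group of all, with a log2 SD of 0.06 against 2.31 and 2.25 in the unpollinated stigma and ovary. The group means were 87.3 ± 16.2, 55.9 ± 36.0 and 17.0 ± 0.656 (SD, n = 3 each).

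Against both unpollinated tissues, ML was higher in every pistil group. These comparisons use the same unpollinated arrays as the 5-min ones, so they are not independent of the choice of the gene. A call needed both tissues in the same direction, and the smaller of the 2 log2 changes is given. At 15 to 25 min it was 6.93, a fold of 122 (limma adjusted p = 0.000171), the 2nd largest increase in a comparison where 4.02% of probe sets were called higher, and 5.84 without unpollinated ovary replicate 3. At 40 to 50 min it was 5.99, a fold of 63.6 (limma adjusted p = 0.000835), the largest increase, with 2.52% called higher. It was 4.90 without unpollinated ovary replicate 3 and 6.74 without 40 to 50 min replicate 2. At 5 to 7 h it was 4.59 (limma adjusted p = 0.00214), ranking 35th, with 8.61% called higher, and 3.50 without unpollinated ovary replicate 3. No array of these groups overlapped an unpollinated one. The second probe set gave 7.10, 5.79 and 4.22, and its ranks were 1, 5 and 46.

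Pistils at 5 to 7 h read lower than those at 15 to 25 min without overlap, a difference that did not pass in the fit over all groups. At 5 to 7 h the highest array, 17.7, lay below the lowest at 15 to 25 min, 69.3. The difference was -2.35 (SE 0.99, 95% interval -4.42 to -0.27), with an unadjusted p of 0.0292 and a limma adjusted p of 0.095, in a comparison where 10.9% of probe sets were called lower. The fit uses 1 spread for all groups, the unpollinated arrays with their wide spread included. In a fit of the 9 pistil arrays alone, chosen after the spread had been seen, the same difference had a limma adjusted p of 0.00283. The second probe set passed in the fit over all groups, at -2.89 (limma adjusted p = 0.0226). Its readings were 7.24, 7.15 and 7.33 at 5 to 7 h, against 47.4, 55.9 and 58.1 at 15 to 25 min, again with no overlap.

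The steps between neighbouring pistil stages did not pass. At 40 to 50 min minus 15 to 25 min the difference was -0.94 (95% interval -3.02 to 1.14, limma adjusted p = 1). Of 35470 probe sets 0% were called in that comparison by limma, and 1033 had an unadjusted p under 0.05. Without 40 to 50 min replicate 2 it was -0.20. At 5 to 7 h minus 40 to 50 min the difference was -1.40 (95% interval -3.48 to 0.68, limma adjusted p = 0.372), where 18% of probe sets were called, and it was -2.15 without that array and did not pass. In the fit of pistil arrays alone, chosen after the spread had been seen, the difference with all arrays kept passed (limma adjusted p = 0.0473). In 13 of 14 other settings it did not pass. The arrays of these stages overlapped, as 40 to 50 min replicate 2 read 16.0 and the lowest array at 5 to 7 h 16.4.

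**Figure D2:**
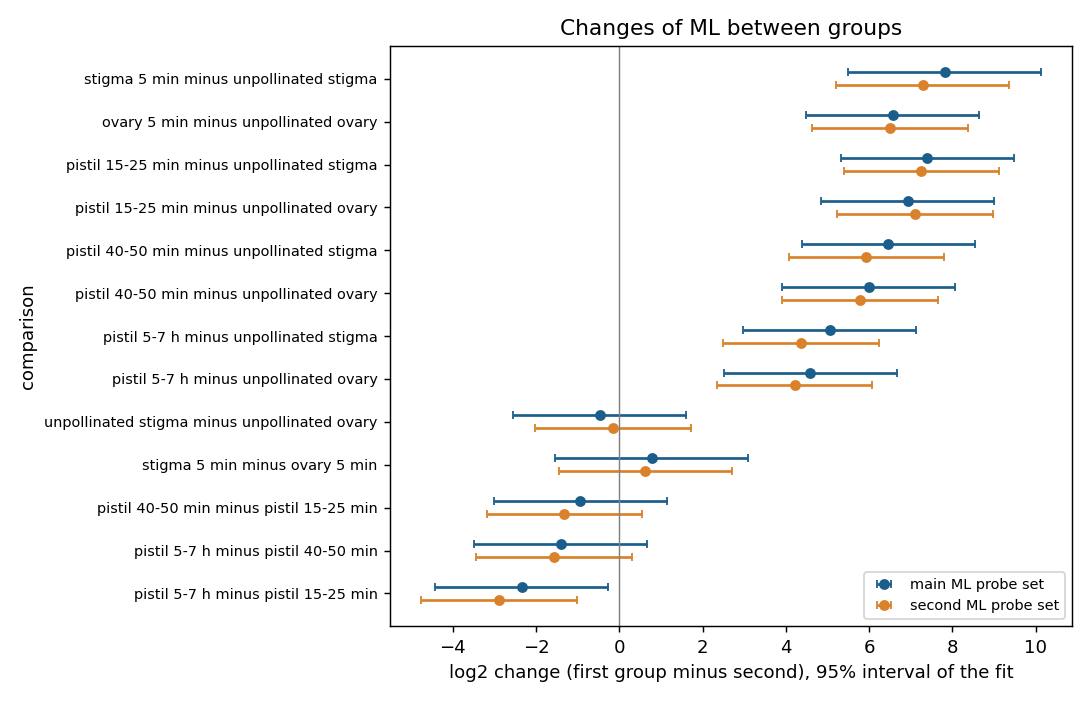
Log2 change of ML between groups, first group minus second, with the 95% interval of the fit, for the main (blue) and second (orange) probe set. The 8 comparisons of a pollinated group with an unpollinated tissue all lie above 0, at 4.59 to 7.82 for the main probe set, and the intervals of the other comparisons include 0 except that of 5 to 7 h minus 15 to 25 min.

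Ordered by the geometric mean, ML was highest in the 5-min stigma, then in pistils at 15 to 25 min, the 5-min ovary, pistils at 40 to 50 min and pistils at 5 to 7 h, and lowest in the unpollinated ovary and stigma. Neighbours in this order overlapped in their arrays in every case but one. The exception was the step from the pistils at 5 to 7 h to the unpollinated ovary, where the lowest late array read 16.4 and the highest ovary array 3.50.

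The genes whose pattern followed that of ML most closely over the 20 arrays, by Pearson correlation of log2 values and among genes with a symbol, numbered 10 by the rule. The metallothionein gene MT1A (listed as ERR26), whose product binds metal ions, came first at r = 0.977. The chitinase gene Cht-1 (listed as CH16), for an enzyme that cuts chitin, came next at 0.965, and the chitinase gene Cht-3 (listed as CH6) stood at 0.937. CAD2 (listed as CAD), for a cinnamyl alcohol dehydrogenase of lignin synthesis, and 4CL3 (listed as 4CL-3), for a 4-coumarate ligase that feeds phenylpropanoids, had 0.962 and 0.924. JAZ8, a jasmonate repressor gene, had 0.957, and the calmodulin-like gene CML4 had 0.954. The sugar exporter gene OsSWEET15 had 0.946, the monosaccharide transporter gene MST3 0.936, and the beta-glucosidase gene BGLU6 0.942.

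These correlations are descriptions over arrays that share the step between unpollinated and pollinated samples, and 116 other probe sets reached 0.9 or more. The median over all tested probe sets was -0.15 and the 95th percentile 0.614. Among the 14 pollinated arrays alone, ML followed MT1A (0.957) and Cht-1 (0.925) closely, and BGLU6 (0.481) and JAZ8 (0.631) less so. The second ML probe set ranked 1st, at 0.992 over all arrays and 0.987 among the pollinated ones. MT1A read 9.50 and 32.2 in the 5-min stigma, against 0.213, 0.268 and 0.775 in the unpollinated stigma. In its unpollinated arrays too, the third stigma and the first ovary replicate were the highest.

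**Figure D3:**
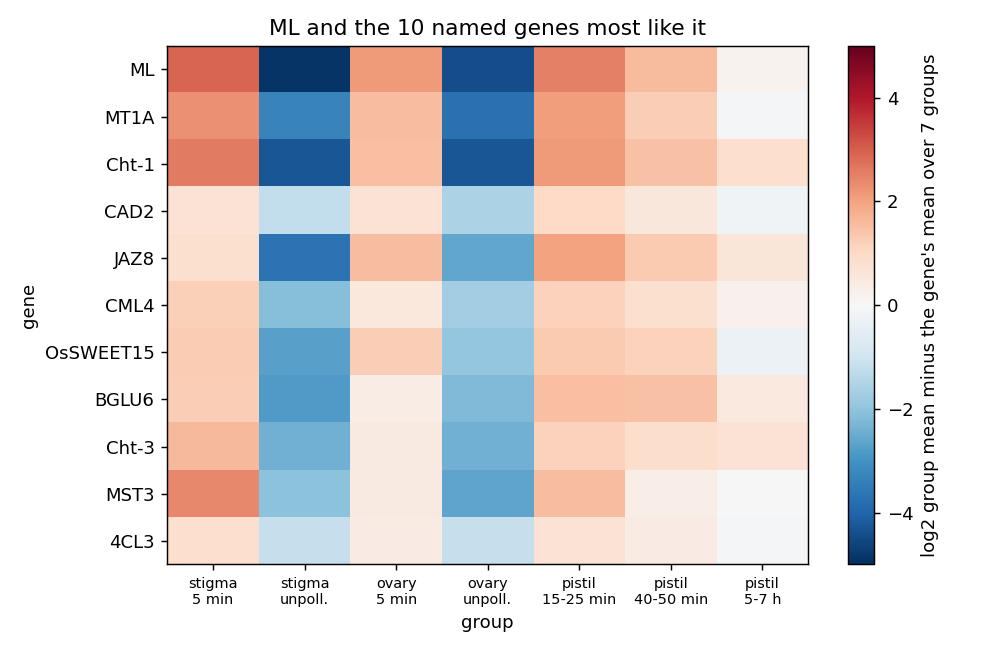
Group means of log2 intensity for ML and the 10 most similar named genes, each minus the gene's own mean over the 7 groups (rows are genes, columns are groups; red above and blue below that mean). The unpollinated columns are blue for every gene shown; the genes were chosen by this likeness.

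A likeness within groups, from deviations of each array from its group mean, was also computed after the values had been seen. The second ML probe set ranked 1st at 0.952, and 43 other probe sets reached 0.9 or more. Named genes at the top were PXG (0.934), BGLU31 (0.929), GRXS7 (0.928) and GLO3 (0.917). HSP16.9A, a small heat shock protein gene, ranked 9th of the named genes at 0.883. ML's own largest deviations lay on unpollinated arrays, at 2.59 in stigma replicate 3 and 2.31 in ovary replicate 1. These arrays weigh most in this likeness. Among the 14 pollinated arrays r was 0.727 for PXG, 0.174 for BGLU31, 0.884 for GRXS7, 0.239 for GLO3 and 0.93 for HSP16.9A. Over all 20 arrays HSP16.9A had -0.011. HSP16.9A read 3.30, 0.420 and 32.2 in the unpollinated stigma, and 6.73, 0.801 and 0.651 in the unpollinated ovary. In each tissue it was highest on the array where ML was highest before pollination, and the part of this in the ML readings was not tested. ML's deviation correlated with that of the array median at r = -0.062 over 20 arrays. Unpollinated ovary replicate 1 had 7.32% of tested probe sets at the floor, the most of any array, and unpollinated stigma replicate 3 had 0.601%. A part of array quality in these ML readings was not tested.

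Of the pollen markers, EXPB9, a beta-expansin gene of the pollen allergen type, read 66.0 and 62.5 in the 5-min stigma, against 3.83, 4.39 and 2.35 in the unpollinated stigma. It read 9.13, 19.5 and 8.12 in the 5-min ovary, against 0.180, 0.328 and 0.487 in the unpollinated ovary. Of 18 pollen symbols 3 were tested, and 2 were higher in the 5-min stigma (EXPB9 and EXPB10), beside 8.61% of all probe sets, and 1 in the 5-min ovary (EXPB9), beside 3.88%. EXPB9 correlated with ML at 0.572 over 20 arrays and at -0.579 within groups, and the part of pollen RNA in the ML rise was not tested. Of 6 tapetum symbols 3 were tested and 0 called at 5 min in either tissue by limma, where 8.61% were called higher and 13.4% lower in the stigma, and 3.88% and 2.02% in the ovary. The 3 stamen and lodicule symbols matched 4 genes, since 2 loci carry the name MADS2. Of these 4 genes 2 were lower and 0 higher in the 5-min stigma, where 13.4% of probe sets were lower, and 0 were called in the ovary. The 2 lower genes were MADS4 and the MADS2 locus LOC4325001, and the other MADS2 locus, LOC4343851, was not called.

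ML's change in pistils was set against that of 6 other early-rise genes, known from earlier results of these data. Of these, PBZ1 was called higher at 5 min in the ovary (log2 change 6.11) and not in the stigma (1.52). The difference of log2 values, ML minus the other gene, was taken on each array and compared between 5 to 7 h and 15 to 25 min by an exact two-sided permutation test, 3 arrays against 3, which cannot go below p = 0.1. ASMT, a melatonin synthesis gene, and HOX12, a homeodomain-leucine zipper gene, had changes of -6.76 and -6.53, against -2.35 for ML. The difference between ML's change and theirs was 4.42 for ASMT and 4.18 for HOX12. Both genes lay at or near the floor at 5 to 7 h, and with no floor or a higher one the difference ran from 3.86 to 4.73 for ASMT and from 3.86 to 4.18 for HOX12. Both had an exact permutation p of 0.1 and an adjusted p of 0.12 over the 6 genes, and their arrays did not overlap.

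Of the other genes, Cht-1 had a change of -1.26, and ML's change minus that of Cht-1 was -1.08. EXPB9 and the metallothionein gene MT1B had changes of 1.25 and 0.50, giving differences of -3.60 and -2.84. All 3 had arrays that did not overlap, at the smallest exact permutation p that 3 arrays against 3 can give, so the test could not call them. PBZ1, a pathogenesis-related gene of the PR10 family, had a change of -2.47, close to that of ML, and its difference of 0.12 had overlapping arrays (exact permutation p = 1). Its sign turned without single arrays, so no order between ML and PBZ1 is given. ASMT read 0.155, 0.123 and 0.0702 at 5 to 7 h, against 14.8, 14.2 and 15.4 at 15 to 25 min, and 2 of its 3 late arrays lay under the floor of 0.128, so the fitted size of its change depends on the floor.

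**Figure D4:**
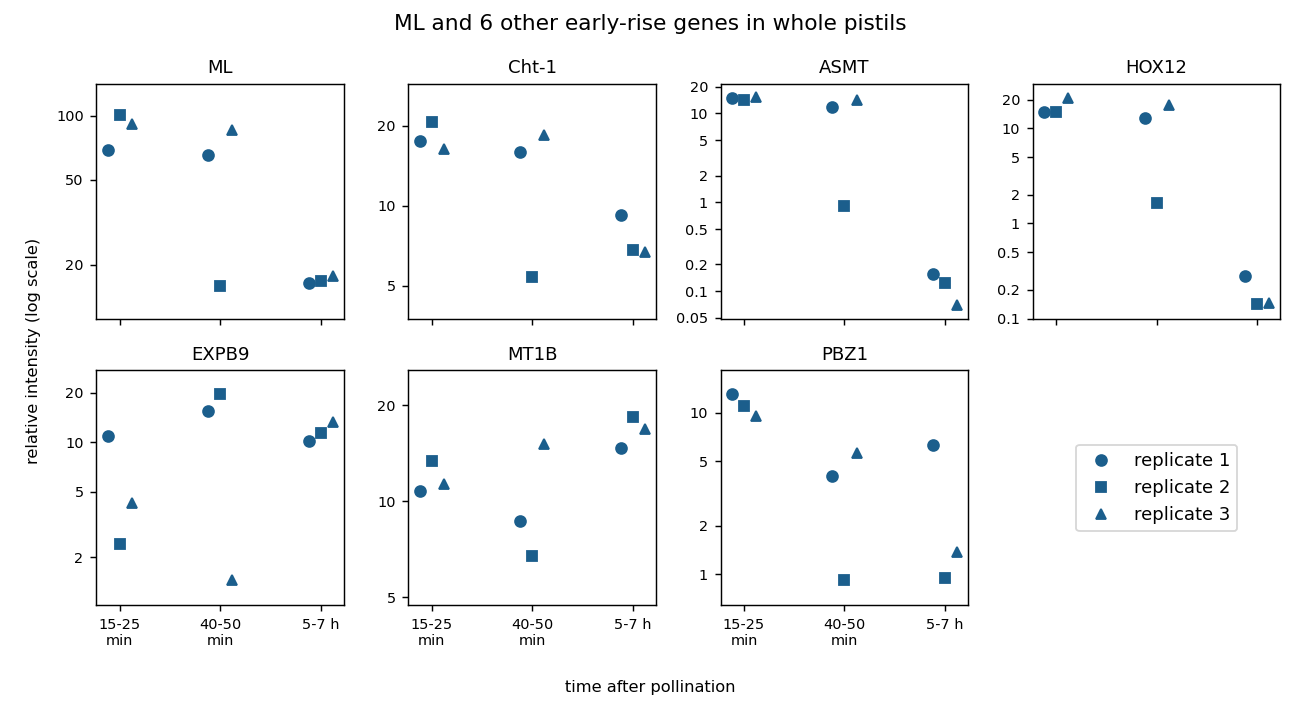
Relative intensity (log scale, each panel with its own range) of ML and 6 other early-rise genes in pistils by time after pollination, the earliest stage at the left of each panel; each symbol is 1 array, its shape the replicate number. ML stays at 16.4 to 17.7 at 5 to 7 h, whereas ASMT is at 0.155 or less, and replicate 2 at 40 to 50 min is the lowest of its group for ML, Cht-1, ASMT, HOX12, MT1B and PBZ1.

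Because salT is known from dehydration, other dehydration genes of rice were described beside it. The list was drawn up by gene name with earlier results of these data known, so its calls are a description and not an independent test. Of 49 symbols 19 were in the naming tables and 16 were tested. In the 5-min stigma 7 rose and 0 fell, where 8.61% of all probe sets were called higher and 13.4% lower. The median log2 change was 1.32 against -0.02 for all tested probe sets. The count of risers was 4 without 5-min stigma replicate 2 and 4 with array weights. In the 5-min ovary 1 rose and 0 fell, with a median of 0.26 against -0.06, where 3.88% were called higher and 2.02% lower.

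The largest log2 changes of the list in the 5-min stigma were those of the dehydrin genes RAB16B, RAB21 and RAB16C. Dehydrins are water-binding proteins made in drying tissue. RAB16B read 8.16 and 10.9 in the 5-min stigma, against 0.129, 0.206 and 0.0913 in the unpollinated stigma, and rose by 5.98. RAB21 read 7.85 and 22.6, against 0.227, 0.253 and 0.267, and rose by 5.74. No array overlapped for either gene, and 1 unpollinated array of RAB16B lay under the floor. RAB16C rose by 4.43, EM, for an embryo-abundant protein, by 1.96, the factor gene NAC6 by 1.89, DHN1 by 1.33, and DREB2A, for a drought-response factor, by 0.88.

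In the 5-min ovary only RAB16B passed, at a log2 change of 1.99 (limma adjusted p = 0.0499), and in 6 of 11 other settings 0 genes of the list passed there. RAB21 had 0.30 there. Of these 16 genes 9 were higher in the 5-min stigma than in the 5-min ovary and 1 was lower, beside 20.7% and 14.3% of all probe sets. RAB21 had 2.63 (limma adjusted p = 0.0071), and ML had 0.78, and the difference between them was not tested. These tissue differences at 5 min include any that were present before pollination. DREB1A, among the 9, had a mean of 1.49 in the unpollinated stigma and 0.541 in the unpollinated ovary. Its 5-min stigma change was -0.015, which was not called. For RAB21 the unpollinated means lay the other way, at 0.249 in the stigma and 2.21 in the ovary. In pistils 7 of the 16 were lower at 5 to 7 h than at 15 to 25 min and 0 higher, beside 10.9% and 14.2% of all probe sets. The median was -0.99 against -0.05, and 4 were lower without 15 to 25 min replicate 3. LEA3 fell by 3.10, BZIP23 by 2.97, RAB21 by 2.87, DHN1 by 2.25, NAC6 by 1.81, DREB1B by 1.45 and DREB1A by 1.13. RAB21, DHN1 and NAC6 were also called higher in the 5-min stigma. LEA3, BZIP23, DREB1B and DREB1A were not called at 5 min in either tissue.

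**Figure D5:**
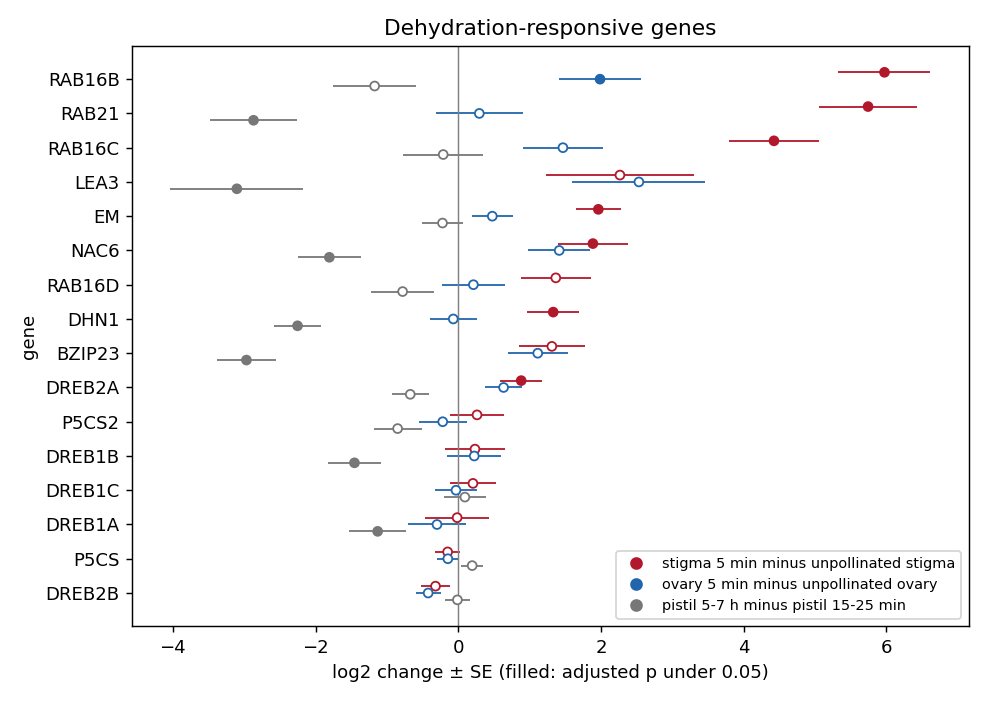
Log2 change ± SE of the 16 tested dehydration genes in the 5-min stigma (red) and 5-min ovary (blue) minus their unpollinated tissue, and in pistils at 5 to 7 h minus 15 to 25 min (grey); filled dots have an adjusted p under 0.05. RAB16B and RAB21 lie at 5.98 and 5.74 in the stigma, and 7 genes lie below 0 with filled grey dots.

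Among 11 lectin symbols 1 gene was tested. PID2, a lectin receptor kinase gene for blast resistance, was lower at 5 min, with a stigma log2 change of -0.56, where 13.4% of probe sets were lower, and an ovary log2 change of -0.68, where 2.02% were, and higher by 1.12 in pistils at 5 to 7 h minus 15 to 25 min, where 14.2% were higher.

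Genes next to ML on chromosome 1 were described from the annotation. Of the 5 genes on each side in RefSeq's assembly ASM3414082v1, 3 were tested, 2 lay under the filter on dim probe sets and 5 had no probe set listed. LOC4326503 had log2 changes of 0.11 in the 5-min stigma and 0.57 in the 5-min ovary. LOC4326473 had 0.26 and -0.08. LOC4326469 was lower in the 5-min stigma, at -0.91 (limma adjusted p = 0.00884), and had -0.70 in the 5-min ovary. Their correlations with ML over 20 arrays were 0.302, -0.095 and -0.317.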

How the data were processed

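The authors deposited a linear relative intensity for 57381 probe sets on 20 arrays. GCOS 1.3 is named, per the submitters' processing notes, and each array took 500 ng of RNA, per the labels. As the values show, the 75th percentile of each array is 1, and the program that scaled them is not stated. All 20 columns were matched to samples, 0 were unmapped, and no detection calls were used.

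A floor of 0.128 (20th percentile of all values) was set before taking log2. Without the 187 controls, 35470 probe sets that exceeded the median of 2 or more arrays were tested. limma 3.58.1 (R 4.3.3) fitted 7 group means with a variance trend on the mean and 13 residual degrees of freedom. P-values were adjusted by Benjamini-Hochberg per comparison, and a call is an adjusted p under 0.05. Folds are ratios of geometric means. At the floor lay 0.169% to 7.32% of tested probe sets per array.

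Genes were named from the platform annotation, with 1 gene for 22436 probe sets and several for 95, and RefSeq synonyms. Named were ML, the 10 genes with a symbol most alike over 20 arrays, 5 neighbours on each side, 6 early-rise genes, and members of the marker lists; the genes alike within groups, the dehydration list and the lectin list were added later. The gene, the lists and the tests were chosen with earlier results of these data known. A protein family of ML by sequence search was planned and is not analysed here.

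Alternatives were other scalings, floors, filters, probe sets, variance models, array weights, smaller fits, the replicate number as a block, and each array left out.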

Additional observations from a re-analysis of the deposited data

How the results depend on the processing

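The increases of ML over both unpollinated tissues kept their direction and call under every planned setting and with each of the 20 arrays left out. They share the unpollinated arrays with the 5-min changes that chose the gene, so the kept calls are not independent of that choice. The ranges with an array left out were 5.84 to 7.40 at 15 to 25 min, 4.90 to 6.74 at 40 to 50 min and 3.50 to 5.06 at 5 to 7 h. Those of the 5-min changes were 6.90 to 9.11 in the stigma and 5.48 to 7.73 in the ovary.

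The fall in pistils at 5 to 7 h minus 15 to 25 min missed the threshold in the fit over all groups and passed in others. It was -2.89 with the second probe set (adjusted p = 0.0226), -2.38 with array weights (0.00897) and -2.35 in the fit of only the groups compared (1.06e-05) and of the pistils alone (0.00283). It also passed without unpollinated stigma replicate 3 (0.0371) and without unpollinated ovary replicate 1 (0.0487), and its range with an array left out was -2.50 to -2.23. At 5 to 7 h minus 40 to 50 min, where arrays overlapped, the fit of pistils alone gave -1.40 (0.0473), and the range was -2.15 to -0.94. These differences are of limma fits, in which a group left with 1 array is assumed to vary like the others.

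The unpollinated stigma minus the unpollinated ovary turned to 0.46 with array weights, with a range of -1.76 to 0.69. Its cause was not tested. The 5-min stigma minus the 5-min ovary ran from 0.34 to 1.13 with an array left out, and 40 to 50 min minus 15 to 25 min from -1.41 to -0.20. ML minus PBZ1 turned to -0.15 without 15 to 25 min replicate 1, -0.42 without 5 to 7 h replicate 2 and -0.18 without 5 to 7 h replicate 3, with a range of -0.42 to 0.97.

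The dehydration genes higher in the 5-min stigma numbered 4 with array weights and 4 without 5-min stigma replicate 2, and 7 in the fit over all groups. In the ovary the count of 1 ran from 0 to 4. The count lower at 5 to 7 h was 4 without 15 to 25 min replicate 3.

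With the replicate number as a block, 5 to 7 h minus 15 to 25 min gave -2.35 (adjusted p = 0.0927), and the block changed no call of ML; deviations of same-numbered arrays correlated between -0.259 and 0.425, so the numbers were not taken to pair the samples, although 13 of 20 arrays correlated best with arrays of their own number, a hint from the data and not from the design. Median centring shifted the all-probe-set median by -0.40 in the 5-min stigma minus the 5-min ovary, and quantile normalization by -0.25.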
